A study of Mus musculus with 6 samples.

Results

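The Hox cluster genes of the mouse, taken as every gene whose symbol is Hox followed by a, b, c or d and a number, were measured in whole uteri with and without epithelial Sox17. The pattern found 39 genes, all 39 with at least 1 probe on the array among 20145 named genes, and 29 of them were bright enough to be tested among 14791 genes. RNA came from the uterine horns of 3 mice of either genotype, Sox17 f/f and Sox17 ed/ed, at gestational day (GD) 3.5 of natural pregnancy, after the embryos had been flushed out, and each mouse was read on its own Agilent G3 Mouse GE array in 1 colour (Cy3). The females had been mated at 8 to 10 weeks of age with males of proven fertility. The Sox17 f/f mice were littermates with the floxed Sox17 allele and no Cre, and the Sox17 ed/ed mice were LtfiCre/+ Sox17 f/f, so both genotypes carried the floxed allele. The iCre stands in the Ltf (lactoferrin) locus, which is active in the uterine epithelium, and the horns also hold stroma, muscle, vessels and leukocytes. By staining, the paper found no SOX17 in the epithelium of such mice. It still found SOX17 in cells of the stromal compartment, which it takes for endothelial. The comparison asks how the positional genes of the female tract stood in a uterus whose epithelium had lost SOX17, at the time when it should become receptive to the embryo.

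Hox genes encode homeodomain transcription factors and lie in clusters named A to D. Genes at the same place in different clusters share a paralog number, and the higher the number the more posterior the part of the body in which the gene is used. In the Müllerian duct Hoxa9, Hoxa10, Hoxa11 and Hoxa13 are used in turn from the oviduct to the upper vagina, and in the adult uterus Hoxa10 and Hoxa11 are needed in the stroma for implantation and decidualization and respond to progesterone and estrogen.

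Sox17, the targeted gene, fell on all 3 Sox17 ed/ed arrays. Its normalized log2 signal was 12.21, 12.07 and 12.22 on the Sox17 f/f arrays and 9.75, 9.59 and 9.81 on the Sox17 ed/ed arrays, a log2 fold change of -2.45 (SE 0.09, n = 3 per genotype, limma, adjusted p = 2.56e-05). Every log2 fold change below is Sox17 ed/ed over Sox17 f/f, every p is from limma fitted across the 14791 genes, and adjusted values follow Benjamini and Hochberg over all of them. The 6 arrays were on 1 slide scanned at one time, with each genotype in its own slide row, so slide position and genotype cannot be told apart. In whole tissue, fewer cells of a type and less RNA per cell cannot be told apart either.

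No Hox gene passed both the p and the fold threshold, and the 5 that passed the adjustment had point estimates below 1.4-fold. With the thresholds named in the methods, an unadjusted p under 0.01 and a fold change of at least 1.4, 0 of the 29 tested Hox genes were called by limma, against 12.5% of all genes tested (6.02% higher and 6.48% lower in Sox17 ed/ed). At an unadjusted p under 0.05 the count was 10 of 29, 8 higher and 2 lower, against 33.9% of all genes (16.3% higher and 17.6% lower). At an adjusted p under 0.05, 5 Hox genes passed, 17.2% of those tested against 19% of all genes (8.82% higher and 10.1% lower), so the share of Hox genes was near the background. Hoxa10 (gene ID 15395), Hoxb3 (15410), Hoxd9 (15438) and Hoxd10 (15430) were the 4 that rose and Hoxb9 (15417) was the 1 that fell. Of the 29 point estimates 27 were below 1.4-fold, those of these 5 genes among them. Small values were not particular to Hox genes, whose median size of the log2 fold change was 0.22 against 0.17 for all genes tested.

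Upstream sequence is shown for the risen genes that the RefSeq promoter table of the GRCm38.p6 assembly holds, Hoxa10, Hoxd9 and Hoxd10, so that the short motifs searched can be read in place. Hoxb3 and Hoxb9 are not among the entries used here. Each line gives 250 bases that end at an annotated start, 5′ to 3′ on the strand of the gene, and Hoxa10 has 2 annotated starts. Capitals mark CCAAT boxes, which read ATTGG on the other strand and are a common element of core promoters.
Hoxa10 farther start, chr6:52240855-52241104, minus strand: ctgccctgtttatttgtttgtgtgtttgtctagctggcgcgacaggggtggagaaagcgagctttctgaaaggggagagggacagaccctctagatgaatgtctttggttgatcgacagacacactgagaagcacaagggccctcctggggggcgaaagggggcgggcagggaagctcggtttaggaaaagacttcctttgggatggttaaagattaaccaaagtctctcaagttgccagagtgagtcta
Hoxa10 nearer start, chr6:52234940-52235189, minus strand: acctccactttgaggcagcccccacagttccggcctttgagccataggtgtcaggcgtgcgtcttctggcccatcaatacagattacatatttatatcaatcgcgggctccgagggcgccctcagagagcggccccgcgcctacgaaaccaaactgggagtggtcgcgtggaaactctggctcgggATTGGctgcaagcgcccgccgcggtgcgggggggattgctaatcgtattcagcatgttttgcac
Hoxd9, chr2:74697513-74697762, plus strand: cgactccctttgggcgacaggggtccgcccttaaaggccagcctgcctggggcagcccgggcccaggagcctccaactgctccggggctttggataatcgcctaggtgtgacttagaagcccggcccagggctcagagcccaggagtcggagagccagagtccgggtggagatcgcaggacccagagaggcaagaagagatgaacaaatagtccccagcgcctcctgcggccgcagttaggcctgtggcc
Hoxd10, chr2:74691641-74691890, plus strand: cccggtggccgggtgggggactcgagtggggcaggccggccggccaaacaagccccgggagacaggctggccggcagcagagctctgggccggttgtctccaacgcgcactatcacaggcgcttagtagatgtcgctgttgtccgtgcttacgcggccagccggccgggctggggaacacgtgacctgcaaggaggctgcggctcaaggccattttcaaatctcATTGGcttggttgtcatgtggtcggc

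Both strands of the 4 windows were searched for ACAAT, the core bound by SOX proteins, for TGATTNAT, a joint HOX and PBX motif, and for AGAACA, the half-site of the progesterone receptor, and none of these letters was found in any of them. Among 32851 upstream windows of 250 bases in the table, ACAAT stood in 27.7%, TGATTNAT in 2.82% and AGAACA in 16.1%, and among the 24 windows of Hox genes in 20.8%, 8.33% and 8.33%. The CCAAT box, a motif added after the sequences had been seen, stood in 33.8% of all windows and in 58.3% of Hox windows. It lay 64 to 60 bases before the nearer start of Hoxa10 and 26 to 22 bases before that of Hoxd10. A match of letters is a description of the window only.

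**Figure D1:**
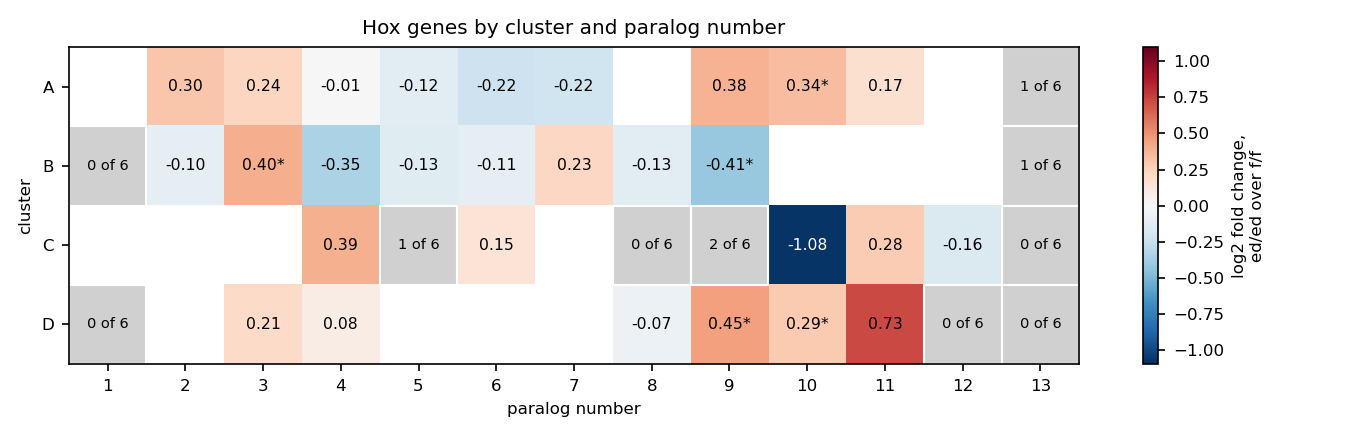
Of the 39 Hox genes, 38 by cluster (rows) and paralog number (columns), coloured by log2 fold change, Sox17 ed/ed over Sox17 f/f. Grey fields were not tested and give the number of 6 arrays on which the gene was above background, white fields hold no gene or one not shown, and asterisks mark the 5 genes with an adjusted p under 0.05; the value of Hoxc10 was measured below background in Sox17 ed/ed.

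Hoxa10, needed in the uterine stroma for implantation, was modestly higher without epithelial Sox17. Its normalized log2 signal was 11.77, 11.83 and 11.84 on the Sox17 f/f arrays and 12.16, 12.11 and 12.19 on the Sox17 ed/ed arrays. The groups did not overlap, and the SD within either genotype was 0.04. The log2 fold change was 0.34 (SE 0.06, 95% interval 0.19 to 0.49, n = 3 per genotype, adjusted p = 0.0137), and an exact permutation test of this gene alone gave its smallest possible p, 0.1. With 1 array left out at a time the adjusted p stayed under 0.05 in 5 of 6 cases and was 0.0616 without Sox17 f/f replicate 1, where the log2 fold change was 0.32.

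Hoxa11, its neighbour with an overlapping role in the uterine stroma, was measured by 1 probe printed at 10 spots. Its log2 signal was 13.24, 13.25 and 13.29 in Sox17 f/f and 13.44, 13.47 and 13.39 in Sox17 ed/ed. The groups lay apart, with an SD between mice of 0.02 in Sox17 f/f and 0.04 in Sox17 ed/ed. Between the spots of 1 array the SD was 0.03 to 0.07, which is technical spread alone. The log2 fold change of 0.17 (SE 0.06, 95% interval 0.03 to 0.32) did not pass the adjustment (adjusted p = 0.0989), and its interval lay inside 1.4-fold. Hoxa11os, the noncoding RNA transcribed from the opposite strand of Hoxa11, read 14.89, 14.75 and 15.01 in Sox17 f/f and 15.30, 15.36 and 15.30 in Sox17 ed/ed. It was higher by 0.44 on the log2 scale (SE 0.08, adjusted p = 0.0161).

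Hoxa9, the most anterior of the A cluster genes used in the duct and marking its oviduct end, was read by 2 probes above background on all 6 arrays. On the brighter probe the log2 signal was 8.28, 8.62 and 8.21 in Sox17 f/f and 8.64, 8.77 and 8.84 in Sox17 ed/ed. The groups lay apart by a narrow margin, with a log2 fold change of 0.38 (SE 0.12, adjusted p = 0.0836). On the other probe the values were 8.57, 7.99 and 7.82 against 8.15, 8.00 and 8.10, the groups overlapped and the difference was -0.04. Hoxa13, of the cervix and vagina, was above background on 1 of 6 arrays with either of its probes, a Sox17 f/f array, and has no tested value.

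Hoxd9, Hoxd10 and Hoxd11, the D cluster counterparts of these genes, which act with them in the limb, were on the same side. Hoxd9 read 10.88, 11.12 and 11.14 in Sox17 f/f and 11.49, 11.41 and 11.60 in Sox17 ed/ed, with groups apart and a log2 fold change of 0.45 (SE 0.10, 95% interval 0.21 to 0.69, adjusted p = 0.0246). Hoxd10 read 10.86, 10.90 and 10.89 against 11.19, 11.08 and 11.25, with groups apart and a log2 fold change of 0.29 (SE 0.07, 95% interval 0.12 to 0.46, adjusted p = 0.0341). With 1 array left out at a time, Hoxd9 kept an adjusted p under 0.05 in 2 of 6 cases (without Sox17 f/f replicate 3 or Sox17 ed/ed replicate 2) and Hoxd10 in 1 (without Sox17 ed/ed replicate 2), and the highest values were 0.0762 and 0.115.

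Hoxd11 had a higher mean through 1 array, with overlapping groups. It read 9.51, 9.83 and 9.80 in Sox17 f/f and 11.59, 9.76 and 9.97 in Sox17 ed/ed. Replicate 1 of Sox17 ed/ed was far above every other array, and the remaining 2 were at the level of the controls. The log2 fold change was 0.73 (SE 0.47, adjusted p = 0.336) with that array and 0.15 without it (adjusted p = 0.512). On the same array Hoxd13, the last gene of the cluster, read 3.93 against 1.71 to 1.98 elsewhere, although it was above background on none of the 6.

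Seen together, all 6 genes of paralog numbers 9 to 11 in clusters A and D had a positive log2 fold change, from 0.17 to 0.73 with a median of 0.36, their groups lay apart in 5 (19.5% of all genes lay apart on the higher side), and 3 passed the adjustment (8.82% of all genes on that side). The 0.73 is that of Hoxd11, which was 0.15 without Sox17 ed/ed replicate 1. Hoxa9 is counted by its brighter probe, and its other probe gave -0.04 with overlapping groups. This grouping was made after the values had been seen and carries no test. Of the paralogs of the same numbers in clusters B and C, Hoxb9 and Hoxc10 had negative and Hoxc11 a positive value.

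**Figure D2:**
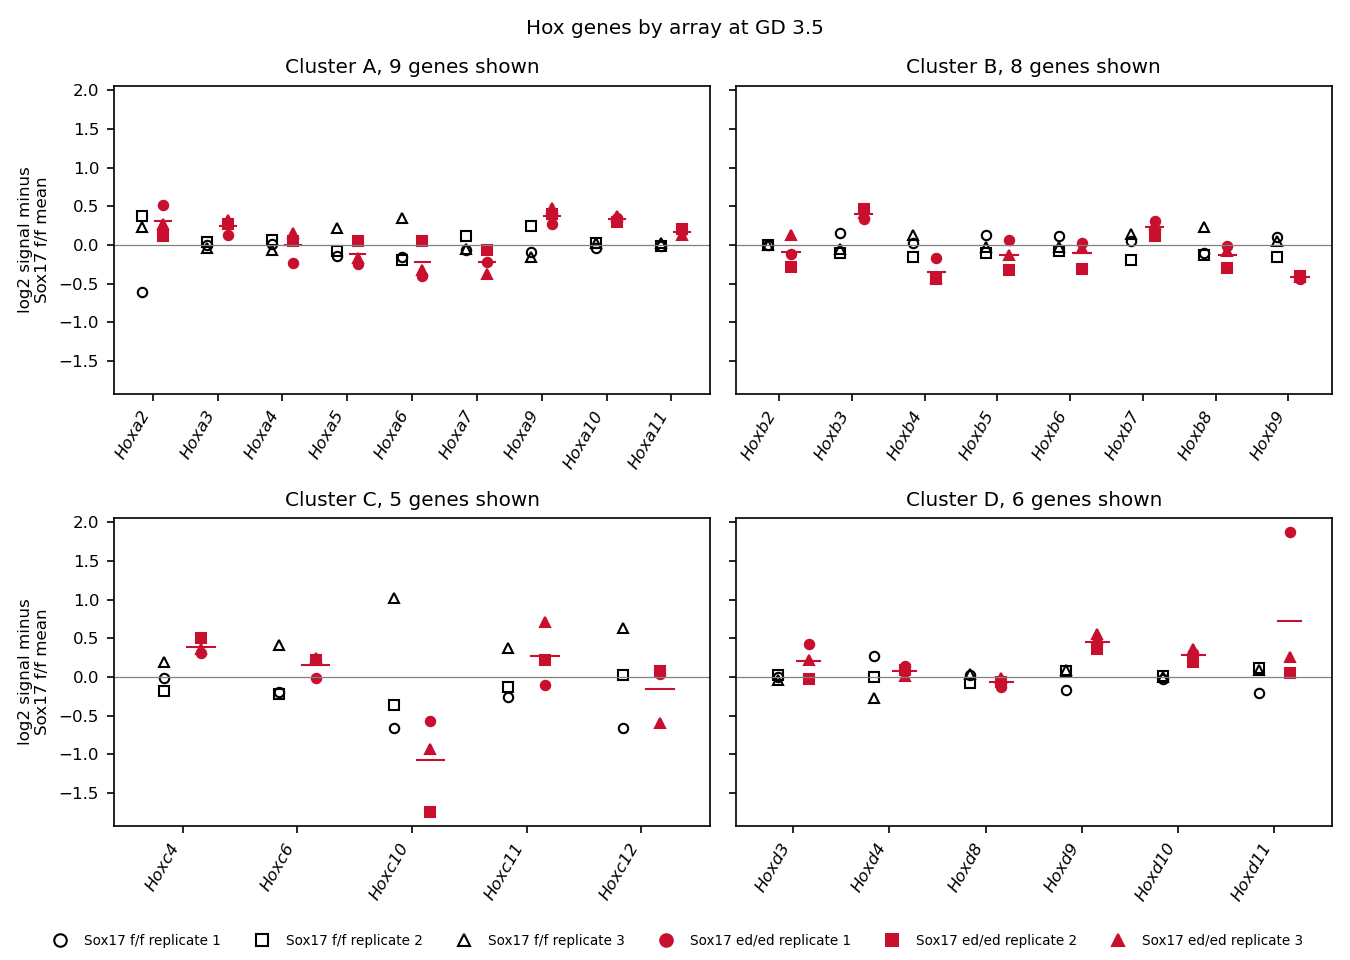
Normalized log2 signal of 28 of the 29 tested Hox genes on each array, less the mean of the 3 Sox17 f/f arrays, by cluster; open black symbols are Sox17 f/f, filled red symbols Sox17 ed/ed, the shapes give the replicate and the red lines the mean of Sox17 ed/ed. Hoxa10, Hoxd9 and Hoxd10 lie above their controls on all 3 arrays, Hoxb9 lies below, and Hoxd11 has a single high array.

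Hoxb9, a B cluster gene of the thoracic region, fell. It read 7.88, 7.63 and 7.84 in Sox17 f/f and 7.35, 7.38 and 7.37 in Sox17 ed/ed. The groups lay apart, and the SD was 0.14 in Sox17 f/f and 0.02 in Sox17 ed/ed. The log2 fold change was -0.41 (SE 0.08, 95% interval -0.62 to -0.21, adjusted p = 0.020). Leaving out 1 array at a time kept the adjusted p under 0.05 in 1 of 6 cases, without Sox17 f/f replicate 2, and the others reached 0.0723, with log2 fold changes from -0.49 to -0.37.

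Hoxb3, which patterns the hindbrain, gave different answers on its 2 probes. On the brighter probe it read 7.96, 7.70 and 7.75 in Sox17 f/f and 8.13, 8.26 and 8.21 in Sox17 ed/ed, with groups apart and a log2 fold change of 0.40 (SE 0.09, adjusted p = 0.0271). On the other probe it read 6.85, 6.64 and 6.89 against 6.75, 6.24 and 6.32, with overlapping groups and a difference of -0.36 (unadjusted p = 0.0648). With the mean of its probes in place of the brighter one the log2 fold change was 0.02 and the adjusted p 0.888, so the call rests on 1 of 2 probes. With 1 array left out, it held in 1 of 6 cases, without Sox17 f/f replicate 1.

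**Figure D3:**
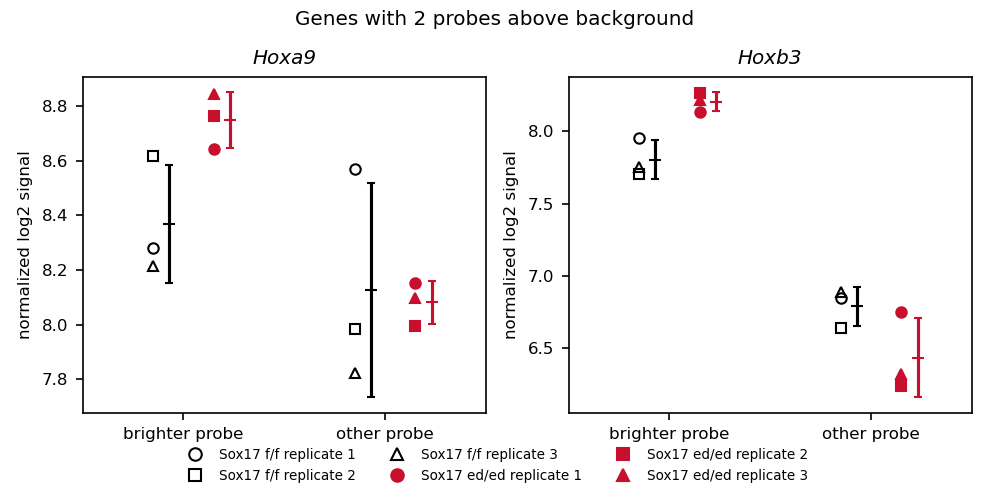
Normalized log2 signal of Hoxa9 and Hoxb3 on each of their 2 probes, by array; symbols as named in the legend, bars give the mean and SD of 3 arrays. Sox17 ed/ed lies above Sox17 f/f on the brighter probe of each gene and does not on the other.

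Most values of the B cluster were below 0. Of 8 tested genes 2 had a positive and 6 a negative log2 fold change, with a median of -0.12 and a range from -0.41 to 0.40. Hoxb4, known from blood stem cells, read 10.27, 10.08 and 10.36 in Sox17 f/f and 10.06, 9.80 and 9.81 in Sox17 ed/ed. Its groups lay apart by a narrow margin, with a log2 fold change of -0.35 (SE 0.11, adjusted p = 0.0803). Hoxb2, Hoxb5, Hoxb6 and Hoxb8 lay between -0.13 and -0.10 with overlapping groups, and Hoxb7 was at 0.23 (adjusted p = 0.201).

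The A cluster was evenly split, with 5 of its 10 tested genes on either side of 0 and a median of 0.08. Hoxa3, which patterns the pharyngeal arches, had groups apart at 0.24 (adjusted p = 0.0760), and Hoxa7, a gene of the trunk, had groups apart on the other side at -0.22 (adjusted p = 0.192). Hoxa5 and Hoxa6 were at -0.12 and -0.22, both with overlapping groups. Hoxa2 was at 0.30 with all arrays (adjusted p = 0.478), a value set by Sox17 f/f replicate 1, which read 4.39 against 5.11 to 5.52 on the other 5 arrays, and without that array it was -0.00086. Hoxa4 exceeded background on the 3 control arrays and on 0 arrays of Sox17 ed/ed, although its measured means were 4.29 and 4.28.

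Of the C cluster 5 of 9 genes were tested, and the 95% interval of none of the 5 lay within 1.4-fold. Hoxc4 read 6.30, 6.13 and 6.51 in Sox17 f/f and 6.62, 6.82 and 6.67 in Sox17 ed/ed, with groups apart and a log2 fold change of 0.39 (SE 0.11, adjusted p = 0.0616). Hoxc6 and Hoxc11 were at 0.15 and 0.28, and Hoxc12 at -0.16, each with overlapping groups. With 1 array left out Hoxc6 ranged from 0.05 (without Sox17 f/f replicate 2) to 0.36 (without Sox17 f/f replicate 3), and Hoxc11 from 0.06 (without Sox17 ed/ed replicate 3) to 0.47 (without Sox17 ed/ed replicate 1), so neither size is settled. Hoxc10, a gene of the lumbar region and hindlimb, exceeded background on all 3 control arrays, at 4.24, 4.53 and 5.91, and on none of Sox17 ed/ed, at 4.33, 3.15 and 3.97. With Sox17 ed/ed values raised to the lowest signal above background, which was higher there, its mean was 1.54-fold lower than in Sox17 f/f. The groups overlapped, the adjusted p was 0.191, and the 95% interval of the measured log2 fold change, -2.29 to 0.14, includes 0. The 1.54-fold value rests on Sox17 f/f replicate 3. Without that array it was 1.08-fold and the measured log2 fold change was -0.57 in place of -1.08. With normexp background correction the measured value was -0.35. All 5 tested C cluster genes were highest among the controls on Sox17 f/f replicate 3, by 0.53 above the genotype mean on average. That array had 65.7% of its spots above background and a median processed signal of 49.6, against 56.8% to 61.5% and 39.3 to 43.6 on the other arrays. The part of this in the C cluster values was not tested.

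Of the remaining D cluster genes, Hoxd3 was at 0.21 (adjusted p = 0.286), Hoxd4 at 0.08 (adjusted p = 0.728) and Hoxd8 at -0.07 (adjusted p = 0.534), all with overlapping groups. The cluster had 5 of 6 tested genes above 0 and a median of 0.25.

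The untested genes lay mostly at the ends of the clusters. Of the 10 genes not tested, Hoxb1 and Hoxd1 at the anterior end and Hoxc8, Hoxc13, Hoxd12 and Hoxd13 were above background on none of the 6 arrays, Hoxa13, Hoxb13 and Hoxc5 on 1 and Hoxc9 on 2. All 4 genes of paralog number 13 were among the untested, and of the 6 genes with numbers 12 and 13 only Hoxc12 was tested. In contrast 9 of the 10 genes with numbers 9 to 11 were tested. The filter asked for signal on at least 3 of 6 arrays whatever the genotype: Hoxa4 and Hoxc10, with exactly 3, were just inside it and Hoxc9 just outside, at 4.14, 3.60 and 3.77 in Sox17 f/f and 3.67, 3.21 and 1.90 in Sox17 ed/ed.

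**Figure D4:**
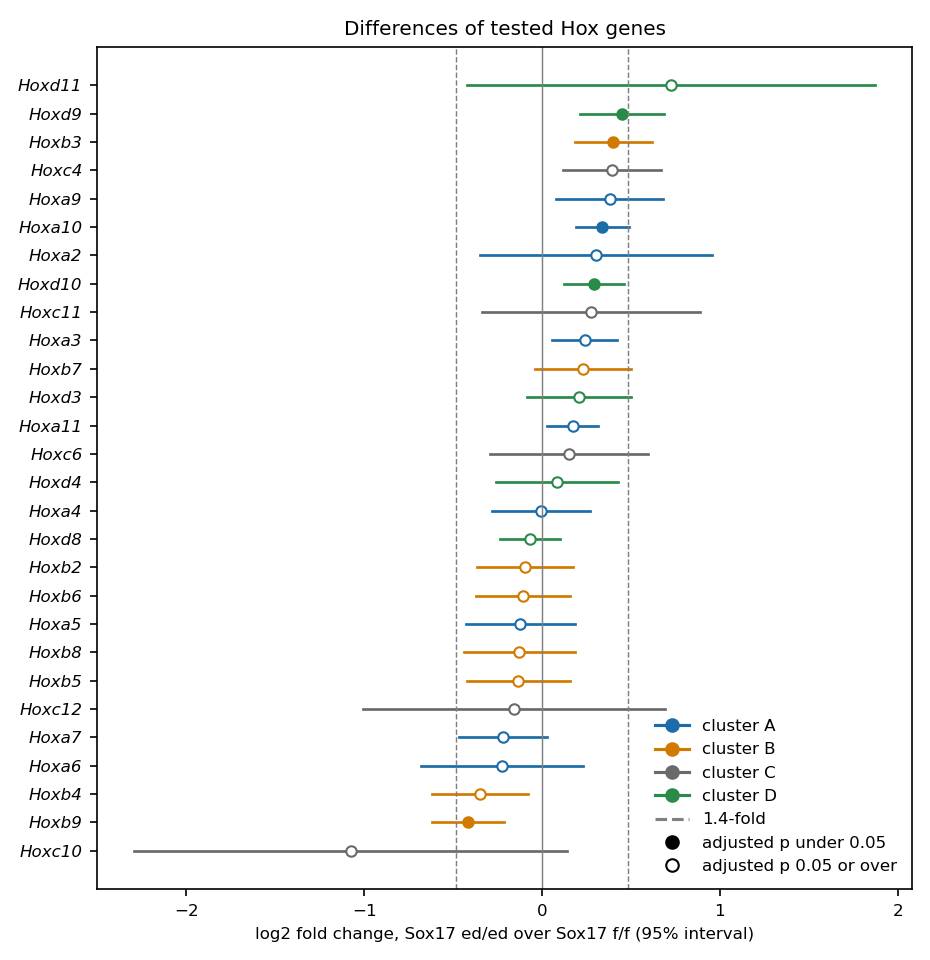
Log2 fold change of 28 of the 29 tested Hox genes, Sox17 ed/ed over Sox17 f/f, with 95% intervals from limma (n = 3 per genotype), coloured by cluster and ordered by size; filled points have an adjusted p under 0.05 and dashed lines mark 1.4-fold. No interval drawn lies wholly outside 1.4-fold, and the widest are those of Hoxc10 and Hoxd11.

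The precision of these values bounds the differences. For 13 of the 29 genes, 44.8%, the 95% interval lay within 1.4-fold either way, against 57% of all genes tested. The median size of the log2 fold change was 0.22 for the Hox genes and 0.17 for all genes, and the median standard deviation within a genotype was 0.15 and 0.11. The median signed value was 0.08 against -0.002 for all genes, with 15 genes above and 14 below 0. The groups did not overlap for 11 Hox genes, 37.9% against 40.5% of all genes, with 8 higher (19.5% of all genes) and 3 lower (21%).

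**Figure D5:**
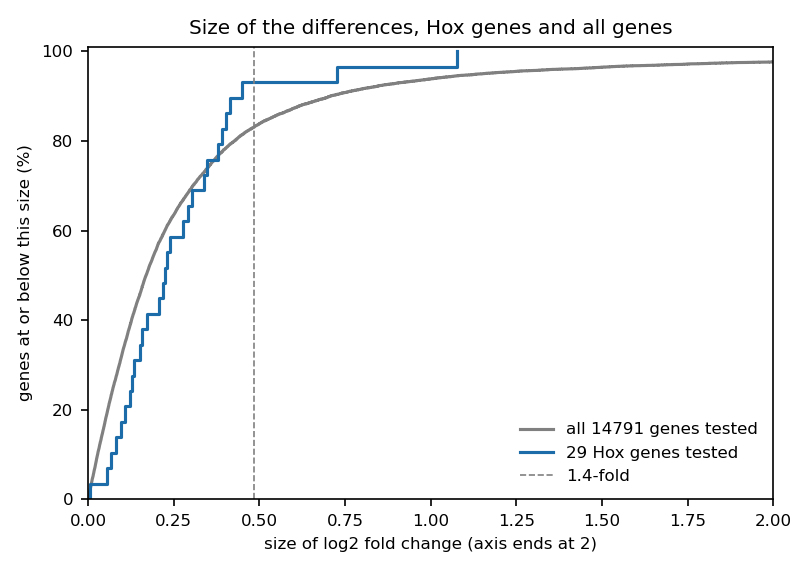
Share of genes (%) whose log2 fold change is at or below a given size, for the 29 tested Hox genes and all 14791 genes tested; the dashed line marks 1.4-fold. The Hox line lies below that of all genes at small sizes, and 27 of the 29 Hox genes lie left of the dashed line.

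Some cell type markers differed between the genotypes beside these values. Beside the counts below, 12.5% of all genes tested passed the methods' thresholds, 6.02% higher and 6.48% lower. The adjusted rule was passed by 19%, 8.82% higher and 10.1% lower. Sums below are of linear signal, so the brightest members of a list weigh most. The summed signal of 8 endometrial stroma markers was 506600 to 527700 in Sox17 f/f and 438900 to 499200 in Sox17 ed/ed. Of the 8, 0 passed the methods' thresholds, and Dcn, which encodes decorin, was lower at an adjusted p of 0.0171. Col1a2, the brightest, was at -0.11. Lum, Thy1 and Vim also lay below 0, and Pdgfra (0.29), Col1a1 (0.03) and Col3a1 (0.03) above it. The sum of 8 smooth muscle markers was 494500 to 546200 against 368400 to 443900, with Actg2, an enteric-type smooth muscle actin, past the thresholds at -0.64 and Cnn1, which encodes calponin, lower at an adjusted p of 0.0292. Lmod1 (0.28) and Smtn (0.06) lay above 0, and Tagln (-0.33), Acta2 (-0.29), Des (-0.28) and Myh11 (-0.16) below it. None of these passed either rule. Of 8 uterine epithelium markers Cdh1, Krt8 and Krt19 were higher (Krt19 by 2.10) and Cldn3 lower, and all 8 were above background on all 6 arrays. Elf3 (0.61), Epcam (0.10), Krt18 (-0.16) and Cldn4 (-0.34) passed neither rule. The 7 endothelial markers summed to 12060 to 12730 against 9694 to 10250, with 4 of 7 lower at an adjusted p under 0.05. The 5 tested leukocyte markers summed to 10560 to 11860 against 13460 to 14050. That sum mostly follows Csf1r, the brightest of the 5, which was higher at an adjusted p of 0.0161. Of the others, none of which passed, Ptprc and Adgre1 were at -0.06 and -0.11 and Cd3e and Lyz2 at 0.09 and 0.28. Of the oviduct list, whose sum was 1430 to 2467 against 313.7 to 368.6, Ovgp1 fell by 2.92 on the log2 scale. Dnah5, lower, was above background on 3 Sox17 f/f arrays and 1 Sox17 ed/ed array, and Foxj1, higher, on 1 and 3, so their fold changes are not given. Of the squamous epithelium list Krt5 was above background on 0 Sox17 f/f and 3 Sox17 ed/ed arrays, and so entered through the group where it was high. It read 7.80, 4.94 and 5.33 in Sox17 ed/ed. With Sox17 f/f values below the lowest signal above background raised to it, the Krt5 mean was 5.25-fold higher in Sox17 ed/ed. Without Sox17 ed/ed replicate 1 it was 2.83-fold higher. Krt13, Krt14 and Trp63 of that list were at 0.06, 0.30 and -0.12 and did not pass, and Dsg3 was above background on no array. Of 6 ovary markers 3 were tested and none passed. The part of these shifts in the Hox values was not tested.

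HOX factors bind DNA together with proteins of the TALE class. All 9 TALE-class cofactors (PBX, MEIS and PKNOX) were tested, 0 passed the methods' thresholds against 12.5% of all genes, and 2 passed the adjusted threshold, which 19% of all genes did. Meis1 read 12.41, 12.28 and 12.56 in Sox17 f/f and 12.75, 12.87 and 12.76 in Sox17 ed/ed, a log2 fold change of 0.38 (SE 0.09, adjusted p = 0.0347). Pbx3 was at 0.26 (SE 0.06, adjusted p = 0.0361), again with groups apart. The median of the list was -0.06, and its highest value was that of Meis1.

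Other genes set or keep the state of the clusters. Cdx1, Cdx2 and Cdx4, which switch on Hox genes in the embryo, were above background on none of the 6 arrays. Of all genes tested, 12.5% passed the methods' thresholds and 19% the adjusted one. Of 13 tested polycomb genes, which hold Hox genes silent, 0 passed the methods' thresholds and 1 the adjusted one, Jarid2 at -0.36 (SE 0.09, adjusted p = 0.0353). Of 9 tested genes of the MLL and trithorax group, which keep Hox genes active, 0 passed either rule, with values from -0.26 to 0.12. Kmt2a was not analysed here.

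Among genes tied to HOXA10 in the uterus, 1 rose clearly past the spread of its replicates. Emx2, a homeobox gene that HOXA10 is known to repress in endometrium, read 8.78, 9.01 and 8.89 in Sox17 f/f and 9.57, 9.50 and 9.74 in Sox17 ed/ed. It rose by 0.71 on the log2 scale (SE 0.10, adjusted p = 0.00438). It was the 1 of 6 tested genes of the list linked to HOXA10 to pass the methods' thresholds, which 12.5% of all genes did. By the adjusted rule 1 of the 6 was higher and 1 lower, beside 8.82% and 10.1% of all genes, so counts this small say little about the list. Ptger4, a prostaglandin E2 receptor, was lower by an adjusted rule alone, at -0.42 (SE 0.09, adjusted p = 0.0245), and Itgb3, an integrin used by the receptive endometrium, was at 0.11 (adjusted p = 0.259).

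Of 11 Müllerian duct patterning genes, all tested, 3 rose and 3 fell past the methods' thresholds, which 6.02% and 6.48% of all genes did. The list was chosen with earlier results of these data known, and the paper lists Msx1, Msx2 and Wnt4 as dysregulated on its arrays. The counts therefore carry no test. Msx2 rose by 2.21 and Wnt4, a ligand needed for duct formation, by 1.61, and Emx2 is the third. Msx1 was at -0.95, Pax8, a factor of duct epithelium, at -0.91, and the third was Lhx1, needed for the duct to grow. Lhx1 exceeded background on the 3 control arrays alone and so entered through the group where it was high, and where the background floor was lower. With Sox17 ed/ed values raised to the lowest signal above background, its mean was 1.16-fold lower, and 1.07-fold lower without Sox17 f/f replicate 2. The median of the list was 0.07, beside 0.08 for the Hox genes.

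The chromosomal surroundings of the clusters showed no shared shift. Of the 5 nearest protein-coding genes beyond each end of the clusters, 40 in all by their order in the gene table, 35 were tested, with a median log2 fold change of 0.001. Past the methods' thresholds were 2, 5.71% against 12.5% of all genes, both beyond the low-numbered end of cluster A. Nfe2l3, a leucine zipper factor and the fifth gene from that end, read 5.01, 4.76 and 4.92 in Sox17 f/f and 6.27, 6.53 and 6.57 in Sox17 ed/ed and rose by 1.56 (SE 0.11, adjusted p = 0.000310). Skap2, a signalling adaptor and the nearest gene to that end, was at -0.69 (SE 0.09, adjusted p = 0.00354), and the genes between them, Snx10, Cbx3 and Hnrnpa2b1, lay at -0.15, 0.19 and -0.04. By the adjusted rule 3 of the 35 were higher and 2 lower, beside 8.82% and 10.1% of all genes. Past that rule alone were Hibadh (0.36) and Npff (0.29), beyond the high-numbered ends of clusters A and C. Nfe2l1 (-0.40), beyond the low-numbered end of cluster B, was the other. Evx1 and Evx2, homeobox genes beyond the high-numbered ends of clusters A and D, were above background on no array. Of 31 other transcripts placed inside the clusters, 24 lncRNAs and 6 miRNAs among them, 2 had a probe. These were Hoxa11os, given above, and Hoxd3os1 at -0.18 (adjusted p = 0.401).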

How the data were processed

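RNA of whole uterine horns, 3 per genotype, was measured on 6 arrays, grouped by genotype as the labels give it. Per the file headers the authors used Feature Extraction 11.0.1.1 (9.1 in the submitters' processing notes) and deposited its scanner text together with a table of processed values. The deposited spot intensity is the processed signal, background-subtracted and detrended within the array and not normalized between arrays, so values near background are uncertain on a log scale.

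Control and outlier spots (169 to 302 per array) were left out, log2 intensities were quantile normalized, replicate spots were averaged, and a probe had to exceed background on at least 3 of 6 arrays. The array is annotated on mm9. Names came from accessions matched to the RefSeq gene table of GRCm38.p6 (26582 of 55681 probes), so no gene coordinates are given beyond those of the upstream windows. Each gene was read from its brightest probe, and 127 probes with a missing value were left out. limma 3.58.1 (lmFit, eBayes) in R 4.3.3 gave the tests over 14791 genes, tested on simulated data, and Python 3.11.15, pandas 2.3.3 and matplotlib 3.10.9 the tallies and plots. The thresholds of the methods are an unadjusted p under 0.01 and 1.4-fold. The share of spots above background was 60.7% to 65.7% on Sox17 f/f and 56.8% to 59.4% on Sox17 ed/ed arrays, 0 spots were saturated, and the number of arrays limits the precision.

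The members and lists (cofactors, polycomb, trithorax, Cdx, HOXA10-linked, duct, flanking and marker genes) were chosen with earlier results of these data known. Named were all Hox genes past either rule, Hoxa9, Hoxa10, Hoxa11 and Hoxa13, and of each list at most the 6 largest past the thresholds. Other genes named, those past the adjusted rule alone in the lists and the other Hox genes, were picked with their values seen. Values of 1 tested Hox gene and 1 cofactor gene are counted in the totals and are not reported here. Alternatives were a 75th percentile shift, normexp correction with offset 50 (on median spot signals, since no mean signal was used here), no filter, all 6 arrays above background, the mean of probes, an intensity trend, the deposited processed values, a replicate block, 2-fold, and leaving out each array.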

Additional observations from a re-analysis of the deposited data

How the results depend on the processing

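With all 6 arrays, the count of Hox genes past the methods' thresholds was 0 higher and 0 lower under every alternative run, also at 2-fold. Leaving out 1 array moved the count of higher genes between 0 and 2 and of lower genes between 0 and 1: without Sox17 f/f replicate 2 Hoxa9 and Hoxd9 were higher and Hoxb9 lower, without Sox17 f/f replicate 3 Hoxc4 and Hoxd9 were higher, and without Sox17 ed/ed replicate 2 Hoxd9 was. The count at an adjusted p under 0.05 was 5, and it was 2 without a filter on low signal, 4 to 7 under the other alternatives without a block, and 1 to 3 with 1 array left out, where fewer arrays leave fewer degrees of freedom. Hoxa10 passed in 7 of 8 alternatives with all arrays, Hoxb9 in 7, Hoxd9 in 6, Hoxd10 in 5 and Hoxb3 in 4.

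Replicate numbers were shared by the genotypes, and the labels name no pairing. Over all genes same-numbered arrays did not deviate together (r = 0.0626, -0.114 and 0.000289), which cannot exclude a pairing by litter or handling. With the replicate block the count at an adjusted p under 0.05 was 0, and 12 Hox genes had an unadjusted p under 0.05. A block for slide position could not be fitted, since each row held 1 genotype.

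The median log2 fold change of 0.08 was 0.15 with probes above background on all 6 arrays, 0.023 with the mean of probes, and 0.0029 to 0.16 with 1 array left out. The cause was not tested. The sign turned with 1 array left out for Hoxa2 (-0.00086 to 0.49), Hoxa4 (-0.089 to 0.11), Hoxb2 (-0.21 to 0.0025), Hoxc12 (-0.49 to 0.16) and Hoxd4 (-0.054 to 0.22), none of them called. Under the 75th percentile shift the median of all genes moved by -0.0035. Sox17 kept its direction and call in all alternatives, from -2.71 to -2.39. Signal near background limits Hoxa4, Hoxc10, Hoxc12 and the 10 untested genes, and 3 arrays per genotype limit the rest.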

Other observations

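The array of a genotype on which genes of a cluster were lowest or highest was counted. Of the 8 tested B cluster genes, 7 were lowest among the Sox17 f/f arrays on replicate 2, by 0.12 below the genotype mean on average over the cluster, and 6 were lowest among the Sox17 ed/ed arrays on replicate 2, by 0.11. On the same 2 arrays the 10 tested A cluster genes were on average 0.06 and 0.07 above their genotype means, and 5 of the 10 were highest there in either genotype. No pairing of the arrays by replicate number is known, and the genes of a cluster share the array, so these counts carry no test. Other counts were spread out: replicates 1, 2 and 3 of Sox17 f/f were the lowest for 3, 1 and 2 of the D cluster genes, and those of Sox17 ed/ed were the highest for 1, 2 and 2 of the C cluster genes and 1, 5 and 4 of the A cluster genes. The counts named first were picked after all had been seen.

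Of the D cluster genes, 3 of 6 were highest in Sox17 ed/ed on replicate 1, by 0.23 on average over the cluster, a mean that holds the high value of Hoxd11, and 4 of 6 were lowest on replicate 2. Nfe2, Nfe2l1, Nfe2l2 and Nfe2l3 are related leucine zipper genes, 1 beside each cluster. Nfe2l3 beside cluster A rose, Nfe2l1 beside cluster B was lower at an adjusted p of 0.0296 (log2 fold change -0.40), Nfe2 beside cluster C was at 0.48 with overlapping groups and an adjusted p of 0.119, and Nfe2l2 beside cluster D was at 0.13 with an adjusted p of 0.287, all by limma over 14791 genes.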
